A study of Gallus gallus with 3 samples.

Results

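Knockout DT40 cells given back a truncated H2A.Z1 were compared with knockout DT40 cells given back the full-length protein. DT40 is a chicken B-cell line, grown from a virus-induced lymphoma of the bursa and valued for how easily its genes can be replaced. Both lines are labelled double knock-out (DKO) and differ in the histone put back, H2A.Z1 in one and H2A.Z1ΔC in the other. The truncated form is labelled ΔC and is read here as lacking the C-terminus. Which genes the double knock-out removed, which promoter drove the introduced histone, how many residues ΔC lacks and whether a line is 1 clone are not given in the sources used here. The members were the 2 arrays of these lines, of 3 arrays in the series, and the third array, of wild-type DT40, is given beside them for orientation. They were chosen by sample label, and the comparison used the 29498 of 43596 probes that were well above background on both arrays.

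The histone variant H2A.Z takes the place of canonical H2A in a share of nucleosomes, above all in those next to active promoters and at enhancers. The SRCAP and p400/TIP60 remodelling complexes exchange it into chromatin, and the INO80 complex and the chaperone ANP32E have been tied to its removal. Vertebrates have a pair of H2A.Z proteins from separate genes, H2A.Z1 and H2A.Z2. The C-terminal part of the H2A fold, the docking domain, contacts the H3-H4 core of the nucleosome, and the tail after it reaches towards the linker DNA, so a protein cut there differs in the region that helps hold H2A.Z in the nucleosome.

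The series states 1 experiment per sample and holds 1 scanner array per line, a single-colour Agilent chicken array. No value therefore has a replicate error and no p-value is given. Precision is limited throughout by there being 1 array per line. The full-length and wild-type arrays were on slide 1 and the truncated array on slide 2, so slide and scan cannot be told apart from the truncation. A second set of values for the full-length line, the series matrix, was no multiple of its scanner signal (robust SD of the log2 difference between them 0.327), and which array it came from is unknown. The robust SD of truncated minus full-length was 0.364 against the scanner signal and 0.318 against the matrix. The 2 full-length profiles thus differed from each other about as much as the truncated line differed from either. Every gene is therefore given against both full-length profiles, called here the array and the matrix, and both of these differences share the single truncated array. A level is the log2 signal minus the 75th percentile of its array, and a difference is truncated minus full-length on that log2 scale. The SD of the difference was 0.0712 between repeated spots (40 probes) and 0.239 between probes of one gene (2758 genes), which leaves out culture, RNA preparation and labelling.

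Of the B-lineage markers, 8 of the 10 listed were on the array and all 8 were above background in both lines. A summed level is the log2 of the added linear signals, with each marker read by its brightest probe, so bright markers weigh most. The B-lineage sum was 7.24 on the full-length array, 7.18 in the matrix and 7.13 in the truncated line. CD79B, a chain of the B-cell receptor, was at 6.58, 6.57 and 6.63 in the same order. BTK (3.27, 3.16 and 2.85), POU2AF1 (5.37, 5.26 and 4.93) and SYK (0.57, 0.44 and 0.37) were lower in the truncated line than in both full-length profiles. PAX5 (-2.42, -3.17 and -3.06) and EBF1 (-0.46, -0.80 and -0.67) lay between the full-length profiles, and IKZF1 was at 0.72, 0.31 and 0.72. Among T-lineage markers 5 of 6 were above background in both lines, with CD4 below it. Their summed level was 6.18 on the full-length array, 6.42 in the matrix and 5.64 on the truncated array, against 6.40 in wild type. Nearly all of it came from CD3D, at 6.15, 6.40, 5.62 and 6.38 in the same order. Myeloid markers (3 on the array) summed to -3.32, -3.07 and -3.40. Of these 1 was above background on the full-length array, LYZ, and 3 on the truncated array, where CSF3R and MARCO were also detected. Erythroid markers (3 on the array, 3 above background in both lines) summed to -2.94, -2.83 and -2.90. The mesenchymal sum (5 on the array, DCN and PDGFRA below background in both lines) was 0.20 on the full-length array but -1.70 in the matrix, -1.96 on the truncated array and -1.86 in wild type.

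The gene for H2A.Z1, listed as H2AFZ, was read by 2 probes. The first was at 5.87 in wild type, 0.81 on the full-length array, 0.34 in the matrix and -0.21 on the truncated array. The second was at 6.17 in wild type, -0.31 on the full-length array, -0.64 in the matrix and -0.85 on the truncated array. Both probes were thus far below their wild-type level in both knockout lines, and lower in the truncated than in the full-length line. Against the array the truncated line stood 2.03-fold lower with the first probe and 1.45-fold lower with the second, and against the matrix 1.46-fold and 1.16-fold lower. Whether these probes lie in the part deleted in ΔC, or in the introduced sequence at all, is not given in the sources used here, so they are not taken as a measure of the introduced histone. No probe could be named for H2AZ2 (0 probes).

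Between truncated and full-length lines, 1076 probes were higher by 1 log2 or more, that is 2-fold, and 494 were lower, which is 3.65% and 1.67% of those compared. Against the matrix the counts were 843 (2.86%) and 384 (1.3%). A total of 403 probes (1.37%) were higher against both full-length profiles and 122 (0.414%) were lower against both. Higher probes made up 68.5% of the calls against the array and 68.7% against the matrix. Their share was 68.7% with normexp background correction and quantile normalization. It was 58.0% after scaling each array by its median or 55.5% after quantile normalization of the processed signal, so the excess of higher calls depended in part on the processing.

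Calls were most frequent among dim probes. With the compared probes put in 5 bins of equal size by mean signal, 9.97% of the dimmest bin and 0.695% of the brightest differed by 1 log2 or more against the array, while 4.03% and 0.119% did so against both profiles. The median difference was 0.15 in the dimmest bin and 0.04 in the brightest. Against the matrix it was 0.14 and -0.00. Dim probes therefore lay slightly towards the truncated side as a whole. The gene classes said below to move alike are for this reason also given against genes of like level.

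**Figure D1:**
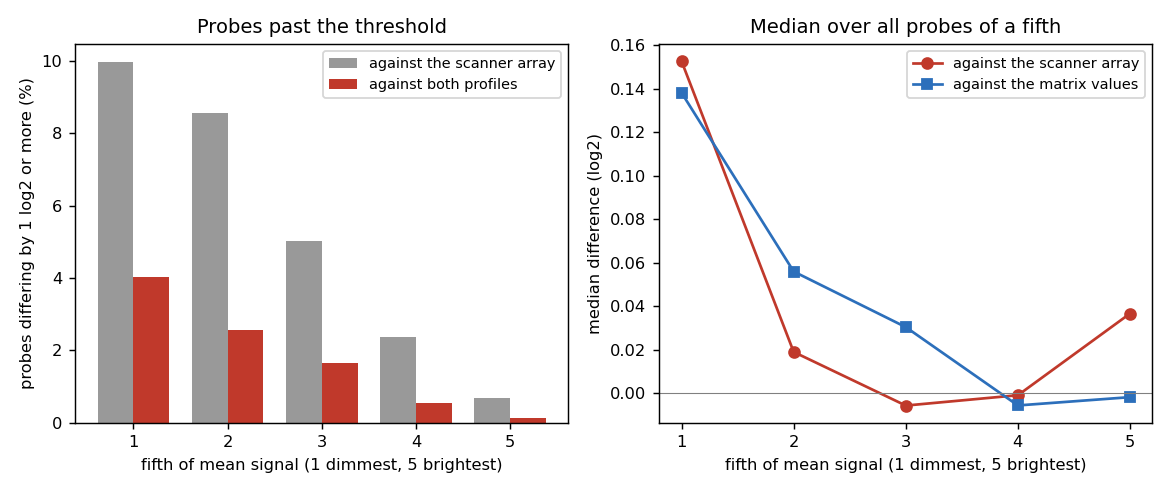
Left, percent of compared probes that differed by 1 log2 or more between the truncated and full-length lines, by bin of mean signal (1 dimmest, 5 brightest), against the scanner array (grey) and against both full-length profiles (red). Right, the median log2 difference of each bin against the array (circles) and the matrix (squares). The share called was 9.97% in the dimmest bin and 0.695% in the brightest, and the median was highest in the dimmest bin, at 0.15 and 0.14.

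Only probes with a gene symbol can be described further. These were 11934 of the probes (27.4%), for 5382 genes, of which 4237 were compared. Among the called probes 24.1% had a symbol and among all compared probes 31.4%. With a gene's probes averaged, 132 named genes (3.12%) lay higher and 65 (1.53%) lower against the array, and 84 (1.98%) and 45 (1.06%) against the matrix. Against both, 51 (1.2%) were higher and 19 (0.448%) lower. Genes above background in the truncated line alone numbered 234 (4.35% of named genes) and those in the full-length line alone 40 (0.743%). The truncated array also read lower: its lowest level well above background was -7.60, against -7.29 on the full-length array. The median difference over all named genes was 0.02 against the array and 0.01 against the matrix.

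**Figure D2:**
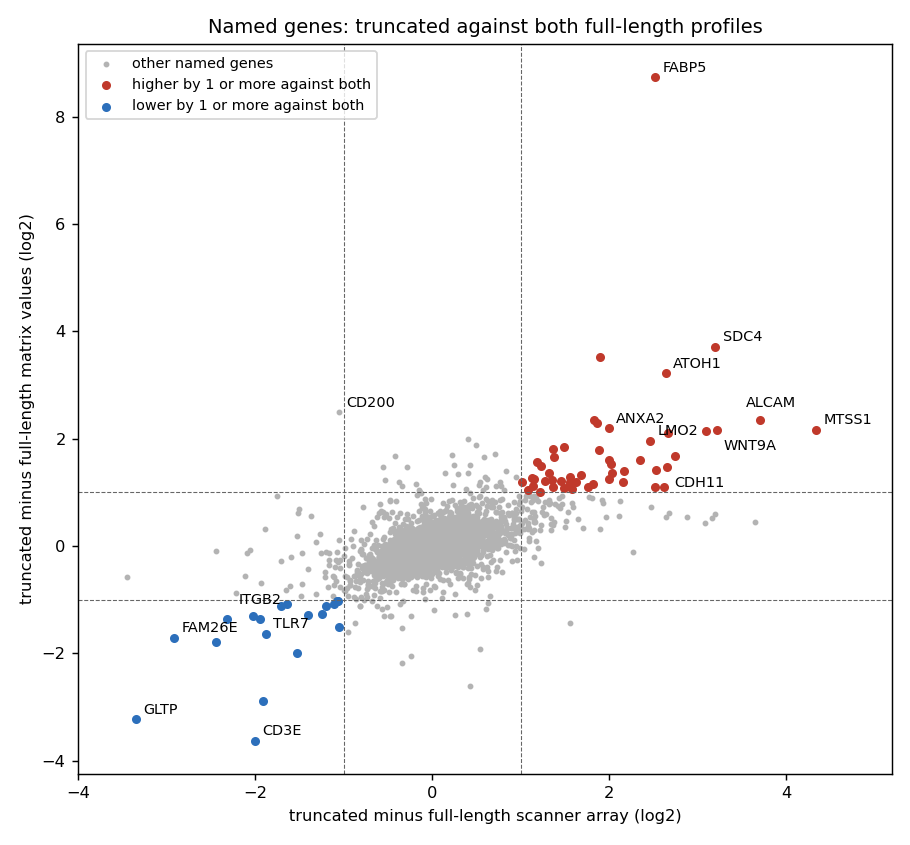
Each point is a named gene, with its log2 difference truncated minus full-length against the scanner array on the horizontal axis and against the matrix on the vertical axis. Dashed lines mark differences of 1, red points the 51 genes higher against both and blue points the 19 genes lower against both. MTSS1, ALCAM, WNT9A and SDC4 lie far to the upper right, GLTP, FAM26E and CD3E to the lower left, and FABP5 stands alone at the top.

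Some genes were higher in the truncated line by 1 log2 or more under each way of scaling. Those with the largest excess included regulators of cell shape and adhesion, developmental transcription factors and signalling proteins. The sizes depended on the processing. With normexp background correction and quantile normalization the log2 difference fell from 4.34 to 2.60 in MTSS1 and from 3.09 to 1.15 in GPR160. It fell from 2.64 to 1.15 in ATOH1, from 2.35 to 1.20 in TLR4 and from 2.52 to 2.30 in FABP5. Values in the next paragraphs are those of each gene's probe of highest mean signal. MTSS1, which binds actin and bends membranes, was at -5.85 on the full-length array, -3.68 in the matrix and -1.51 on the truncated array, with wild type at -5.52. It was 20.2-fold higher in the truncated line against the array and 4.49-fold against the matrix. ALCAM, an adhesion molecule of the immunoglobulin superfamily that binds CD6, was at -6.0, -4.65 and -2.29 in the same order and not above background in wild type. Its excess was 13.0-fold against the array and 5.11-fold against the matrix. In both genes the full-length profiles differed from each other by over 1 log2 and the truncated line lay above either.

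SDC4, syndecan-4, a heparan sulphate proteoglycan of the cell surface, was at -3.86 on the full-length array, -4.37 in the matrix and -0.66 on the truncated array. Its truncated level was 9.18-fold and 13.1-fold higher, and nearer to the wild-type level of -1.48 than either full-length profile was. A like order was found for LMO2, a LIM-domain adaptor of blood-forming cells, at -4.23, -3.73 and -1.77 with wild type at -1.94 (5.50-fold and 3.89-fold). TLR4, the receptor for bacterial lipopolysaccharide, was at -5.37, -4.63 and -3.02 with wild type at -3.33 (5.10-fold and 3.05-fold). In these 3 genes the truncated line was within 1 log2 of wild type and the full-length line was the one that stood lower. BCL2, the founding inhibitor of mitochondrial apoptosis, was at -2.98, -2.32 and -0.95, with wild type at -1.83 between them (4.08-fold and 2.58-fold).

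Several developmental regulators were also in this group. FOXD1, a forkhead transcription factor known from the kidney stroma, was at -3.68 on the full-length array, -4.99 in the matrix and -0.30 on the truncated array, and it was not above background in wild type. The excess was 10.4-fold and 25.7-fold, but the gene's other probe differed by only 0.29 log2 from the array. ATOH1, the proneural factor that specifies inner-ear hair cells in vertebrates, was at -5.92, -6.50 and -3.28 (6.22-fold and 9.31-fold). The secreted ligand WNT9A was at -4.85, -3.79 and -1.64 (9.28-fold and 4.44-fold). ID2, which binds E-proteins and blocks their DNA binding, was at -2.49, -1.81 and -0.48 (4.04-fold and 2.51-fold), and its other probes differed from the array by 2.17 and 2.32 log2. For these last 3 genes wild type lay below the truncated line, at -6.77 for ATOH1, -3.81 for WNT9A and -1.84 for ID2.

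FABP5, a carrier of fatty acids in the cytoplasm, showed how far the full-length profiles could part. It was at -1.80 on the full-length array, -8.02 in the matrix, 0.72 on the truncated array and -4.99 in wild type. The truncated line was above both, but by 5.73-fold against the array and 427-fold against the matrix, so the size of this difference is not settled. PFKFB4, an enzyme that sets the level of the glycolytic activator fructose bisphosphate, was at -4.15, -3.03 and -1.61 (5.79-fold and 2.66-fold). SRGAP1, a protein of SLIT-ROBO signalling, was at -5.28, -4.14 and -2.37, and its other probes differed from the array by 2.38 and 2.92 log2. GPR160, an orphan G-protein-coupled receptor, was at -6.90, -5.95 and -3.81. SMCO4, a small membrane protein, was at -2.0, -1.32 and 0.71, and its other probe differed by 2.62 log2. Over the 23 genes that qualified, 12 had further compared probes, 18 in all, and 18 of them pointed the same way, 14 of them by 1 log2 or more. Most genes described above were not among the 12. MTSS1, ALCAM, WNT9A, SDC4, GPR160, ATOH1, PFKFB4, FABP5, LMO2, TLR4 and BCL2 had no further compared probe. Their differences each rest on 1 compared probe.

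Genes lower in the truncated line included immune receptors and leukocyte proteins. TLR7, the endosomal receptor for single-stranded RNA, was at 0.47 on the full-length array, 0.37 in the matrix and -1.47 on the truncated array, with wild type at 1.32. It was lower by 3.82-fold and 3.58-fold, and its other probes differed from the array by -1.89 and -1.83 log2. ITGB2, the beta chain of the leukocyte integrins, was at 2.35, 1.63 and 0.27 with wild type at 1.94, lower by 4.24-fold and 2.56-fold. All 4 other probes of ITGB2 agreed in direction, from -2.71 to -1.26 log2. In both genes the truncated line was the lowest of all profiles.

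IL16, a chemoattractant for CD4 cells, was at 0.18 on the full-length array, -0.09 in the matrix and -1.28 on the truncated array, with wild type at 0.09 (2.74-fold and 2.28-fold lower). TNFSF13B encodes BAFF, a survival factor for B cells. It was at -1.50, -1.85 and -2.96 with wild type at -1.29 (2.76-fold and 2.17-fold lower), and its 3 other probes ranged from -1.47 to -0.30 log2. MAVS, the mitochondrial adaptor of the RIG-I-like receptors, was at -0.64, -0.58 and -1.79 with wild type at -1.22, and the 3 other probes ranged from -1.15 to -0.15 log2. The IL16 and TNFSF13B levels of wild type lay with the full-length profiles, and the MAVS level of wild type lay between the lines. ARHGAP25, a GTPase-activating protein for Rac in leukocytes, was at -2.47, -3.06 and -4.42 (3.85-fold and 2.56-fold lower).

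Another 3 of these genes were high in the full-length line relative to wild type. FAM26E, of the calcium homeostasis modulator family, was at 0.59 on the full-length array, -0.65 in the matrix, -3.12 on the truncated array and -3.09 in wild type, a truncated minus wild-type difference of -0.04. CD3E, a chain of the T-cell receptor complex, was at -2.30, -0.33, -4.73 and -5.71 in the same order. TLR1A, a Toll-like receptor of the TLR1 group, was at -3.77, -4.99 and -6.23 and not above background in wild type. For these the truncated line was lower by 13.1-fold, 5.36-fold and 5.47-fold against the array. Against the matrix the same genes were lower by 5.55-fold, 21.0-fold and 2.36-fold. The other probe of TLR1A differed by -0.49 log2 only.

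GLTP, a protein that moves glycolipids between membranes, was lower in the truncated line than in any other profile, at -1.13 on the full-length array, -1.25 in the matrix, -4.48 on the truncated array and -0.35 in wild type. It was lower by 10.2-fold and 9.36-fold and has 1 probe. The other genes of this group were lower by smaller amounts. AMY2A, an amylase, was at 0.63, 0.28 and -0.78. PLEKHA2, an adaptor that binds phosphoinositides, was at -0.97, -1.26 and -2.37, and its other probe differed by -0.45 log2. PNAT3, an arylamine N-acetyltransferase, was at -1.19, -1.17 and -2.49, and SHFM1, a small acidic subunit of the proteasome that also binds BRCA2, was at -0.51, -0.53 and -1.62. Of the 16 genes that qualified as lower, 12 had further probes, 25 in all, and 25 pointed the same way, 21 of them by 1 log2 or more. Among the genes named here GLTP, ARHGAP25 and SHFM1 had no further compared probe. No qualifying genes, higher or lower, were neighbours on a chromosome (0 of 4199 adjacent pairs of measured genes). With only 23 higher and 16 lower genes qualifying among 4237, few such pairs could occur, so nothing is concluded about position.

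**Figure D3:**
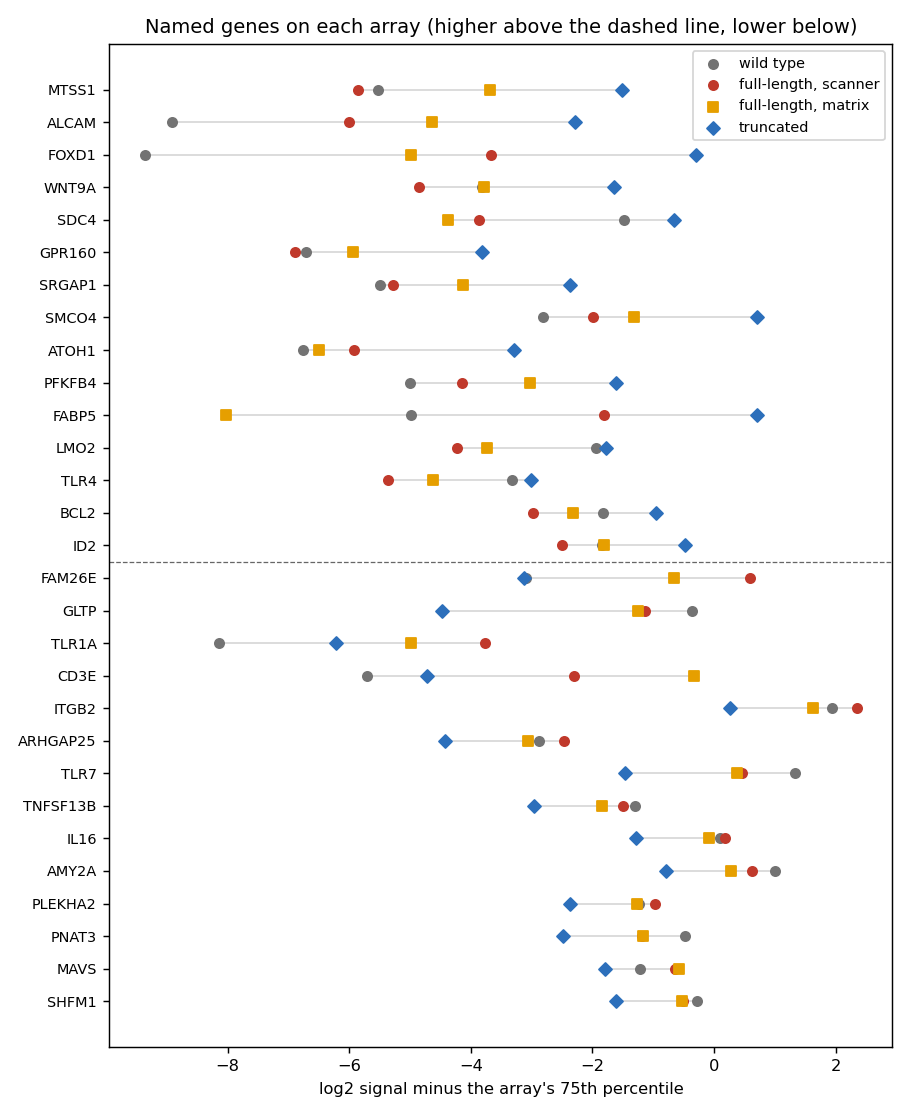
Level (log2 signal minus the 75th percentile of the array, horizontal axis) of the named genes on each array, higher genes above the dashed line and lower genes below. Points show wild type (grey), the full-length scanner array (red), the full-length matrix (orange squares) and the truncated array (blue diamonds). The truncated point lies beyond both full-length points in every gene shown, as the choice of genes requires, while its distance to wild type varies and is near 0 in FAM26E. Wild-type points of ALCAM, FOXD1 and TLR1A were not above background.

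Some genes crossed the detection limit, and for these only a bound can be given: the bright level is set against the dim probe's level on the other array, or against the lowest level there that was well above background, whichever is greater. A bound of 1 log2 or more, with the matrix on the same side by 1 log2 or more, was found for 52 genes higher and 7 lower in the truncated line. Detection was uneven as well: 234 named genes (4.35%) were above background in the truncated line alone and 40 (0.743%) in the full-length line alone. The truncated array also had the lower detection limit, so the excess of higher bounds is not read as a result. MYOZ2, a calcineurin-binding protein of the muscle Z-disc, was at least 25.6-fold higher in the truncated line, with levels of -7.71 on the full-length array, -7.20 in the matrix and -2.61 on the truncated array. These bounds are against the array, and the differences from the matrix, whose background calls are not known, were in part smaller. The MYOZ2 level was 4.59 log2 above the matrix. A second ALCAM probe was at least 13.9-fold higher against the array and 2.94 log2 higher than the matrix, the direction of the first probe. AHR1A, an aryl hydrocarbon receptor, was at least 12.7-fold higher against the array but 1.57 log2 higher than the matrix. HPGDS, which makes prostaglandin D in blood cells, was at least 10.5-fold higher against the array and 2.55 log2 higher than the matrix. GNPDA1, a glucosamine phosphate deaminase, was at least 11.2-fold higher by 1 probe (4.34 log2 above the matrix) and lower by 1.71 log2 by another, so it has no settled direction. It is counted both among the 52 genes here and among the 19 named genes lower against both profiles.

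On the other side NAV3, a neuron navigator protein that binds microtubules, was at least 66.8-fold lower in the truncated line, from a level of -1.17 on the full-length array. In the matrix NAV3 was at -5.54, only 1.69 log2 above the truncated level of -7.23, and wild type was at -5.74. FABP4, a fatty acid carrier like FABP5, was at least 5.16-fold lower and at least 2.04 log2 below the matrix, and its other probe differed by -2.22 log2. CDH20, a cadherin, was at least 5.01-fold lower and 2.55 log2 below the matrix. NCAM1, the neural cell adhesion molecule, was at least 4.03-fold lower by 1 probe and at least 2.39 log2 below the matrix. Its other compared probes differed by only -0.14 and 0.13 log2. WWC1, a scaffold of the Hippo pathway, was at least 2.47-fold lower and at least 1.47 log2 below the matrix, and its other probe differed by -1.92 log2.

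For a view by kind of gene, 42 classes were examined, some of which share members, each with at least 5 compared genes, and the class median was set against the median of all named genes. A class was said to move alike when this relative median was 0.1 log2 or more from 0 with the same sign against the array and the matrix. That held for 13 classes, of which 10 were higher and 3 lower in the truncated line. After genes were compared with others of like level, 9 of the 13 still met the limit, and those that did not were the homeobox and forkhead factors, the MYC network, the erythroid genes and the G-protein regulators. The limit has no chance level attached, since 1 array stands for each group. Just inside it were the homeobox and forkhead factors and the G-protein regulators, both at 0.11 against the matrix. Just outside was the class of FGF, Notch, Hedgehog and receptor tyrosine kinase genes, at 0.24 against the array and 0.0995 against the matrix. With levels matched this class was at 0.06 and 0.03, farther from the limit.

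**Figure D4:**
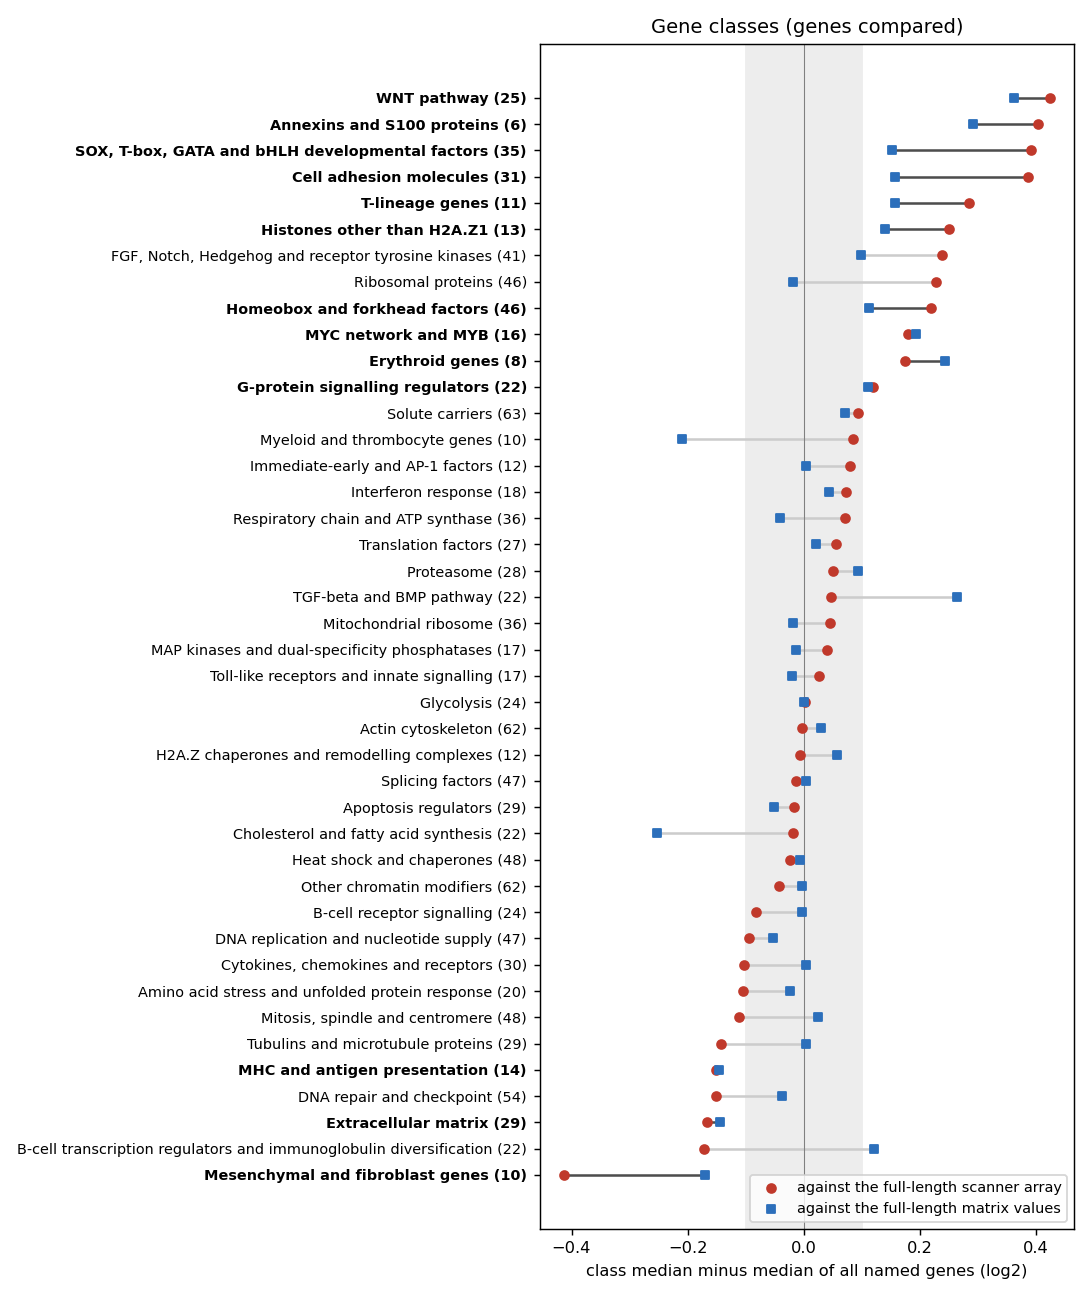
Median log2 difference of each gene class minus the median of all named genes, against the full-length scanner array (circles) and the full-length matrix (squares), with the number of compared genes in parentheses. Bold classes lie beyond the shaded band of 0.1 on the same side with both. The WNT pathway is highest at 0.43 and 0.36, and the mesenchymal and fibroblast genes are lowest against the array, at -0.41 (-0.17 against the matrix).

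The WNT pathway was the class farthest to the truncated side. WNT ligands bind Frizzled receptors and the co-receptors LRP5 and LRP6, which keeps beta-catenin from being degraded and lets it act with TCF and LEF factors. Of 40 genes on the array 25 were compared, 4 were above background in the truncated line alone, 0 in the full-length line alone and 11 in neither. Over all named genes 4.35% were above background in the truncated line alone and 0.743% in the full-length line alone. The relative median was 0.43 against the array and 0.36 against the matrix, and 0.34 and 0.37 against genes of like level. Of the 25 genes, 19 lay above 0 with either profile, where 52% of all named genes did against the array and 52.4% against the matrix. By 1 log2 or more 7 were higher against the array, 5 against the matrix and 4 against both, and 0 were lower. The shares over all named genes were 3.12%, 1.98% and 1.2%. Among the 2 dimmest of the 5 signal bins, 20 of 565 and 18 of 595 named genes were higher against both.

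WNT9A, described above, led among ligands at 3.21 against the array and 2.15 against the matrix. The other ligands did not share this: WNT10A differed by 0.16 and -0.31, WNT6 by -0.08 and -0.20, and WNT8A by -0.77 and 0.04. Receptors lay on the truncated side throughout. FZD4 was at -2.27 on the full-length array, -2.07 in the matrix and -1.06 on the truncated array, with differences of 1.21 and 1.01. FZD3 differed by 1.32 and 0.85, FZD9 by 1.34 and 0.41, FZD1 by 0.87 and 0.16, FZD7 by 0.46 and 0.46, FZD6 by 0.44 and 0.47, and FZD2 by 0.36 and 0.17. All 7 compared Frizzled genes were thus above 0 in the truncated line against both full-length profiles. The matrix differences of FZD1 and FZD2 were less than the spread between probes of one gene against the matrix (SD 0.264). The co-receptor LRP5 was at -4.95, -4.52 and -3.41 (1.54 and 1.11), and WLS, which carries WNT ligands to the cell surface, differed by 1.34 and 0.51.

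Secreted WNT inhibitors lay on both sides. FRZB was at -3.68 on the full-length array, -3.96 in the matrix, -2.46 on the truncated array and -7.08 in wild type (differences 1.22 and 1.49 over 5 probes). DKK3, a Dickkopf family protein, differed by 0.43 and 0.45, while SFRP1 differed by -0.64 and -0.32 and SFRP2 by -0.19 and -0.41. Inside the cell, CTNNB1, which encodes beta-catenin, differed by 0.60 and 0.36. The nuclear partners TCF7 (0.51 and 0.72) and TCF7L2 (0.29 and 1.34) were on the truncated side, and LEF1 was near 0 (0.20 and -0.13). AXIN2, a feedback target of beta-catenin signalling in many tissues, differed by -0.04 and -0.18, less than the spread between probes of one gene.

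Cell adhesion molecules, which join cells to each other and to the matrix, also lay on the truncated side. Of 64 on the array 31 were compared, 5 were above background in the truncated line alone, 2 in the full-length line alone and 26 in neither. The shares in 1 line alone over all named genes were 4.35% (truncated) and 0.743% (full-length). The relative median was 0.39 against the array and 0.16 against the matrix, or 0.36 and 0.11 with levels matched. Of the 31 genes, 26 lay above 0 against the array and 19 against the matrix, where 52% and 52.4% of all named genes did. By 1 log2 or more 6 were higher against the array, 6 against the matrix and 4 against both, where the shares over all named genes were 3.12%, 1.98% and 1.2%, and 1 was lower against both (0.448% over all). Among the 2 dimmest of the 5 signal bins, 20 of 565 and 18 of 595 named genes were higher against both. The 4 adhesion genes higher against both were ALCAM and SDC4, the cadherin CDH11 (-6.22 on the full-length array, -5.05 in the matrix and -3.57 on the truncated array) and the laminin-binding integrin chain ITGA6 (-5.92, -6.27 and -4.43). The exception was ITGB2, whose mean over 5 probes differed by -2.03 and -1.31.

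Integrin chains lay on both sides. ITGA6 differed by 1.49 and 1.84, ITGA9 by 0.72 and 1.12, ITGAV by 0.56 and 0.46, and ITGB3, the partner of ITGAV, by 0.56 and 0.26. ITGB1, the beta chain shared by most integrins that bind matrix, differed by 0.08 and -0.07, and ITGA3 by -0.21 and -0.55. The tetraspanins, membrane organisers that associate with integrins, included TSPAN12 (1.92 and 0.86) and TSPAN6 (1.14 and 0.85) on the truncated side, and CD81, part of the B-cell co-receptor, on the other (-0.52 and -0.10). CD44, the hyaluronan receptor, differed by 0.14 and 0.17.

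**Figure D5:**
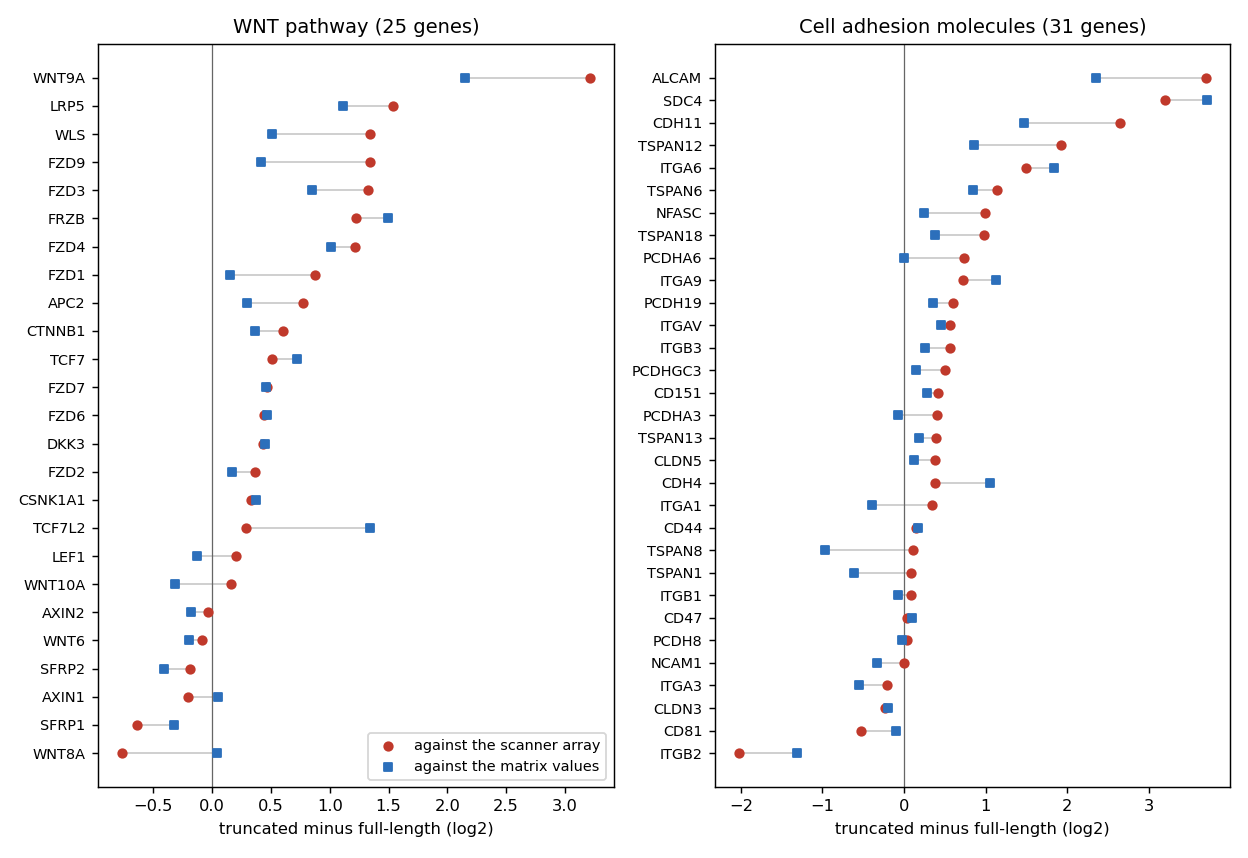
Log2 difference truncated minus full-length for the 25 compared genes of the WNT pathway (left) and the 31 cell adhesion molecules (right), against the scanner array (circles) and the matrix (squares). In the WNT class 19 genes lie above 0 with either profile and WNT9A is farthest, at 3.21 and 2.15. Among adhesion molecules ALCAM and SDC4 are farthest above 0 and ITGB2 farthest below.

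Annexins and S100 proteins, calcium-dependent proteins that bind membranes and one another, formed the smallest class examined, with 6 of 10 genes compared and 4 above background in neither line. Their relative median was 0.40 against the array and 0.29 against the matrix, and 0.43 and 0.31 with levels matched. ANXA2 was at -1.33 on the full-length array, -1.54 in the matrix, 0.66 on the truncated array and -1.44 in wild type, so the truncated line stood alone (differences 1.99 and 2.20). S100A10, the binding partner of ANXA2, was at 2.62, 2.69 and 3.20, with wild type at 2.99 (0.58 and 0.51). ANXA5, which binds phosphatidylserine, was at -2.76, -1.02 and -0.29 (2.47 and 0.73), and ANXA6 differed by 0.26 and 0.10. ANXA11 was on the other side at -0.09 and -0.55, and S100A6 differed by 0.24 and -0.26.

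Developmental transcription factors were on the truncated side as a class, though most were dim in this B-cell line. Of 66 SOX, T-box, GATA, bHLH and related factors, 35 were compared, 11 were above background in the truncated line alone, 0 in the full-length line alone and 20 in neither. Over all named genes 4.35% were above background in the truncated line alone and 0.743% in the full-length line alone. Most of these factors were dim, and the truncated array had the lower detection limit. The relative median was 0.39 and 0.15, and 0.20 and 0.11 with levels matched, at a median truncated level of -4.22. By 1 log2 or more 2 of the 35 were higher against both, ATOH1 (2.64 and 3.22) and ID2 (2.17 and 1.39 over 3 probes), a share near that of dim named genes (20 of 565 in the dimmest bin). Of the 35, 28 lay above 0 against the array and 24 against the matrix, where 52% and 52.4% of all named genes did. All 4 ID genes, inhibitors of bHLH factors, were above 0 with both profiles: ID4 differed by 1.15 and 0.29, ID1 by 0.90 and 0.22, and ID3 by 0.63 and 0.49. The matrix difference of ID1 was less than the spread between probes of one gene against the matrix (SD 0.264). That of ID4 was close to it. SOX10, a neural crest factor, differed by 0.77 and 0.86, and the retinoic acid receptor RARB by 1.06 and 0.68. The mesoderm factor TBX6 was on the other side (-1.11 and -0.58).

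Homeobox and forkhead factors were less displaced. Of 90 on the array 46 were compared and 35 were above background in neither line, and the relative median was 0.22 against the array and 0.11 against the matrix. With levels matched it was 0.0959 and 0.0680, under the limit with both. By 1 log2 or more 2 of the 46 were higher against both, likewise near the share of dim genes: FOXD1 (1.83 and 2.35 over 2 probes) and HOXB1, a hindbrain patterning factor, at -2.24 on the full-length array, -2.19 in the matrix, -1.15 on the truncated array and -2.16 in wild type. PAX7 differed by 0.79 and 0.87 and SIX3 by 0.59 and 0.59. PAX3, the paralogue of PAX7, lay on the other side (-1.13 and -0.55).

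The MYC network and MYB had all 16 genes compared, and the relative median was 0.18 against the array and 0.19 against the matrix, with 12 genes above 0 against either. With levels matched it was 0.0964 and 0.19. In DT40 the MYC locus is the site of the retroviral insertion of the parent tumour, and MYC was bright on every array, at 3.81 on the full-length array, 4.18 in the matrix, 4.41 on the truncated array and 4.19 in wild type. DKC1, a pseudouridine synthase, differed by 0.29 and 0.56, and NME1, a nucleoside diphosphate kinase, by 0.46 and 0.56. The array difference of DKC1 is close to the spread of 0.239 between probes of one gene. MYB, a factor of blood progenitors, differed by 0.29 and 0.67, and TERT, the catalytic subunit of telomerase, by 0.31 and 0.26 over 26 probes. MXD4, which competes with MYC for MAX, was on the other side at -0.95 and -1.61. None of the 16 was higher by 1 log2 or more (0 genes), where 3.12% of all named genes were against the array and 1.98% against the matrix.

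Histones other than H2A.Z1 were close to this, with 13 of 14 genes compared and a relative median of 0.25 and 0.14, or 0.14 and 0.15 with levels matched. Of the 13, 11 lay above 0 against the array and 10 against the matrix. By 1 log2 or more 0 were higher against both, where 1.2% of all named genes were, too small a share to tell in 13 genes. HIST2H4B was at 5.31 on the full-length array, 5.60 in the matrix and 5.86 on the truncated array. The linker histones HIST1H110 (0.31 and 0.32) and HIST1H101 (0.27 and 0.16) and the core histone HIST1H2B8 (0.32 and 0.23) showed differences of like size. The replacement histone gene H3F3B differed by 0.01 and -0.04, and H2AFY, which encodes macroH2A, by 0.00 and -0.17. Replication-dependent histone genes are near-identical copies, so a probe may read several and single members are uncertain.

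Regulators of G-protein signalling had a relative median of 0.12 and 0.11 over 22 of 34 genes, with 5 above background in the truncated line alone and 0 in the full-length line alone. Over all named genes these shares were 4.35% and 0.743%. With levels matched the relative median was 0.04 and -0.00, under the limit with both. RGS20, a GTPase activator for Gz and Gi, was higher against both, at -0.88 on the full-length array, -0.86 in the matrix, 0.26 on the truncated array and -5.91 in wild type. Both lines were far above wild type in this gene and the truncated line was the highest. RGS2 differed by 1.01 and 0.42, RGS3 by 0.61 and 0.66, and the phosphodiesterase PDE3B by 0.59 and 0.40. PDE4B, which also breaks down cyclic AMP, was lower (-1.06 and -1.02).

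The list of T-lineage genes also met the limit on the truncated side, with a relative median of 0.29 and 0.16 over 11 of 16 genes, and 0.17 and 0.12 with levels matched. Its members lay on both sides and were dim, at a median truncated level of -5.51. Of the 11, 8 were above 0 against the array and 6 against the matrix, where 52% and 52.4% of all named genes were. The summed T-lineage markers, given above, lay the other way, at 5.64 on the truncated array against 6.18 and 6.42. That sum was nearly all CD3D (5.62 against 6.15 and 6.40 with its brightest probe), so it is not a result for the markers together. CD5, an inhibitory receptor that some B cells carry as well, was at -6.43 on the full-length array, -5.76 in the matrix, -4.62 on the truncated array and -4.68 in wild type (1.81 and 1.15). CD28 differed by 0.71 and 0.81 from levels near the detection limit. Of the T-cell receptor chains, CD3E differed by -2.00 and -3.63 over 2 probes and CD3D by -0.56 and -0.84, while CD247, the zeta chain, differed by -0.42 and 0.43. CD3D was bright in all lines, at 4.62 on the full-length array, 4.90 in the matrix and 4.06 in the truncated line, while CD4 was not above background.

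Erythroid genes had a relative median of 0.18 and 0.24 over 8 of 14 genes, which became 0.07 and 0.20 with levels matched. LMO2 led, followed by the embryonic globin HBE (0.98 and 0.78) and the Rh blood group gene RHCE (0.56 and 0.38). Per the labels' protocols globin transcripts were removed from the RNA, so the globin levels are what this step left, and HBAD differed by 0.00 and -0.14. The summed erythroid markers, given above, were within 0.239 of each other in the knockout profiles.

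Genes of antigen presentation were lower in the truncated line as a class. Class II molecules are loaded with peptide after the invariant chain, CD74, is cleaved and the DM molecules exchange its remnant for peptide. Of 19 genes on the array 14 were compared and the relative median was -0.15 against the array and -0.14 against the matrix, or -0.24 and -0.14 with levels matched. With the brightest probe of each gene in place of the mean over probes, the class no longer met the limit. CD74 was at 3.18 on the full-length array, 3.31 in the matrix, 2.32 on the truncated array and 3.66 in wild type (-0.86 and -0.99). DMA was at -0.18, 0.06 and -0.95, with wild type at 0.28 (-0.78 and -1.02). RFXANK, a subunit of the RFX factor that drives class II promoters, differed by -0.37 and -0.31 over 4 probes, and DMB2 by -0.19 and -0.22.

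Of the class I members of the same list, B2M, the light chain, differed by -0.03 and 0.01 from a dim level of -5.89 on the full-length array. The peptide transporter genes TAP1 (0.31 and -0.17) and TAP2 (0.56 and 0.04) were not lower against both profiles. A difference between class I and class II genes was not tested. The 4 genes named in the class II pathway were those farthest to the lower side against both profiles, and in each of them the truncated line stood below wild type as well.

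Extracellular matrix genes had a relative median of -0.17 and -0.14 over 29 of 60 genes, or -0.16 and -0.22 with levels matched. By 1 log2 or more 0 were lower against both, where 0.448% of all named genes were, too small a share to tell in 29 genes. COL4A1, a basement membrane collagen, was at -6.60 on the full-length array, -6.10 in the matrix and -7.22 on the truncated array (-0.62 and -1.11). TIMP2, an inhibitor of matrix metalloproteinases, was at 1.68, 1.41 and 1.08 (-0.60 and -0.33). OGN (-0.51 and -0.64) and POSTN (-0.40 and -0.51), both secreted matrix proteins, were also lower. The related list of mesenchymal and fibroblast genes was at -0.41 and -0.17 over 10 of 18 genes, or -0.60 and -0.27 with levels matched.

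These 2 lists share members, and several of their genes differed between the full-length profiles. COL1A2, averaged over 4 probes, was at -3.01 on the full-length array, -4.72 in the matrix, -4.54 on the truncated array and -4.94 in wild type, so it was lower against the array (-1.53) and not against the matrix (0.18). LUM differed by -0.56 and 1.47. The summed mesenchymal markers moved with this result: they were high on the full-length scanner array, as given above, and near the truncated and wild-type sums in the matrix. The part of such cells in this result was not tested, and in bulk RNA fewer cells of a type and less RNA per cell cannot be told apart.

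Most classes did not move alike. Ribosomal protein genes were higher against the array, with 42 of 46 above 0 and a relative median of 0.23, but at -0.02 against the matrix with 21 above 0. B-cell transcription regulators were at -0.17 against the array and 0.12 against the matrix. B-cell receptor signalling genes were at -0.08 and -0.00 over 24 genes, and CD72, an inhibitory co-receptor of B cells, was the member called lower against both (3.67 on the full-length array, 3.10 in the matrix, 2.02 on the truncated array and 3.73 in wild type). Subunits and chaperones that handle H2A.Z were at -0.01 and 0.06 over 12 genes with 0 called, and the other chromatin modifiers at -0.04 and -0.00 over 62 genes. Over all named genes 3.12% were called higher and 1.53% lower against the array, so 0 of 12 says little. Glycolysis (0.00 and 0.00), the interferon response (0.07 and 0.04) and DNA replication (-0.09 and -0.05) were near the median of all genes.

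Within some of these classes single members stood out in opposite directions. Among Toll-like receptor and innate signalling genes, at 0.03 and -0.02 over 17 genes, TLR7 (-1.88 and -1.64 over 3 probes) and TLR1A (-1.47 and -0.71) were lower, TLR4 (2.35 and 1.61) was higher, and TLR21, which senses unmethylated CpG DNA in chicken, differed by 0.66 and 0.75. Their shared adaptor MYD88 differed by -0.27 and -0.19. In the class of FGF, Notch, Hedgehog and receptor tyrosine kinase genes, 4 of 41 were higher against both, where 1.2% of all named genes and 20 of 565 in the dimmest bin were. They are named here after their values were seen. These were the ephrin receptor EPHA7 (2.52 and 1.09), the collagen receptor DDR1 (2.0 and 1.24), the GAS6 receptor AXL (1.56 and 1.18) and the ligand IHH (1.28 and 1.21).

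Finally, 2 named genes (0.0472% of those compared) were called in opposite directions by the full-length profiles. CD200, a ligand that restrains myeloid cells, was at -2.07 on the full-length array, -5.61 in the matrix and -3.12 on the truncated array, lower by 1.05 log2 against the one and higher by 2.49 against the other. LOC420160 was at -5.78, -2.78 and -4.22, higher by 1.56 and lower by 1.44. In both genes the truncated level lay between the full-length profiles, so no direction can be given.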

How the data were processed

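Total RNA of each line was labelled with Cy3 after removal of globin transcripts and a low-input amplification, per the labels' protocols. The scanner output was produced with Agilent Feature Extraction 11.5.1.1, per the file headers, and the deposited processed signal is a linear intensity after background subtraction and spatial detrending within the array, without scaling between arrays. Median signal and local background, also deposited, are uncorrected intensity values, and the deposited spot flags are 0 or 1 per the file headers. How the series matrix, a further linear intensity per spot, was made is not given in the sources used here. For wild type and truncated it was the processed signal multiplied by 1.07 and 1.53, and for full-length no single factor held. All per-sample columns could be mapped (0 unused).

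Control spots and flagged spots were left out, which removed 7 of 43603 probes, and 0 spots were saturated. Values were log2 processed signals less their 75th percentile among the array's non-control spots (signals of 1455, 1558 and 1039 for wild type, full-length and truncated), averaged over the spots of a probe and then over the probes of a gene. Well above background were 69.7%, 68.7% and 72.6% of probes in the same order. Probes were named by matching RefSeq accessions without versions to RefSeq genes of assembly GRCg7b, which differs from the array's galGal3 design, so no coordinates are given. List members were also sought under older symbols (26 synonyms).

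A difference of 1 log2 was called, with no test, since 1 array stood for each group. Named genes were, per direction, the 15 with the largest difference that passed 1 log2 in the same direction against the array, against the matrix, with normexp (offset 50) and quantile normalization, and with median scaling, the 5 with the largest bound, the 4 leading genes of each class moving alike, the H2A.Z genes, and genes called in opposite directions. Other members of a class are given to show its make-up. Level matching used 20 bins of mean level. The members, gene lists and rules were chosen with earlier results of these data known. Not all genes that met the rules are reported here. Alternatives were other background correction, scaling, filters, thresholds and units, and their effect is given at the end. Tools were R 4.3.3 with limma 3.58.1 and Python 3.11.15 with numpy 2.4.6, pandas 2.3.3 and matplotlib 3.10.9. The calling step was run on simulated data with planted shifts well past the threshold and less spread than these data have. That checks the code and says nothing about the rate of false calls.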

Additional observations from a re-analysis of the deposited data

How the results depend on the processing

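With 1 array per group no replicate could be left out, and no test or block for slide was possible. No paired analysis was possible because each group has a single array and the labels pair none. The 1570 probes called against the array (1076 higher, 494 lower) became 649 with normexp and quantile normalization (446 and 203), 308 among probes brighter than the median (194 and 114), 610 at a threshold of 1.5 log2 (441 and 169) and 197 named genes in place of probes (132 and 65). They stayed within 1.5 times with median scaling (1551), quantile normalization (1567), the matrix (1227) and no background filter (2196). Median scaling took the share of higher calls from 68.5% to 58.0% and quantile normalization took it to 55.5%, while the median difference over all probes was 0.03 at first and -0.06 and -0.02 with these. The share of higher calls was 68.7% with normexp and quantile normalization and 68.7% against the matrix.

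The 13 classes moving alike became 8 with normexp and quantile normalization, without the T-lineage, erythroid, extracellular matrix, G-protein and homeobox classes, and 2 at a class limit of 0.2 log2, the WNT pathway and the annexins. Among genes brighter than the median, an alternative chosen after seeing the data, 5 classes met the limit and 3 of them were among the 13. The other classes of the 13, apart from the homeobox class, had under 5 such genes and could not be evaluated. The level matching was also chosen after seeing the data and kept 9. Median scaling kept 13 by construction, quantile normalization kept 11, and the brightest probe per gene gave 13 classes, 11 of them shared, without the antigen presentation and G-protein classes. The matrix is part of the class rule, so no separate count of classes was made with it, but class medians against it are among the values that follow. Class medians reversed in 0 of 82 alternative values and named genes in 0 of 120. For the classes no reversal was possible against the matrix, by the rule, or with median scaling, by construction. For the genes none was possible, by the rule, against the matrix, with normexp or with median scaling. Of the gene values 47 lay farther from the first than the spread between probes of one gene.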
